A study of Mus musculus with 36 samples.

Results

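Female primordial germ cells (PGCs) of stage E16.5 (E16.5F) were compared between fetuses exposed to intrauterine hyperglycemia (IUHG) and control fetuses. The comparison rested on 6 of the 36 RNA-seq libraries of the series, 3 IUHG and 3 control, and on the 18753 of 57126 gene IDs with a mean of at least 1 TPM (transcript abundance, a level corrected for transcript length and scaled to the same total in each library) in either group. All samples were labelled wild type, and in both groups the sires carried the *Oct4-EGFP* transgene, which marks germ cells with green fluorescence. IUHG dams had received 120 mg/kg of streptozotocin, a toxin of pancreatic β-cells, on day 3.5 of pregnancy and had blood glucose above 14 mM on day 6.5. Control dams were labelled as a control group with no vehicle named, so in these libraries streptozotocin itself and hyperglycemia cannot be told apart. The paper also counted PGCs of injected dams without raised glucose, with no significant difference in number, and cultured PGCs in high glucose. Neither is among these libraries. EGFP-positive cells were sorted from gonads of pooled fetuses, so a library averages several animals.

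At this age female germ cells are oocytes within meiotic prophase I, when homologous chromosomes pair, synapse along the synaptonemal complex and recombine. At the same time a small circuit of transcription factors, *Figla*, *Sohlh1*, *Sohlh2*, *Nobox* and *Lhx8*, builds up and turns on the genes that later form the primordial follicle and the egg. Mice lacking any of these factors lose their oocytes around or soon after birth, whereas the meiotic programme is largely separate from this circuit.

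In E16.5F PGCs, 5 of 13 tested genes on the oocyte transcription factor list were called lower in IUHG and 0 higher. Over all genes tested these shares were 0.533% and 0.203%. The 5 were *Sohlh1*, *Nobox*, *Lhx8*, *Figla* and *Ybx2*, of which *Ybx2* encodes an RNA-binding protein. Without IUHG library 3, 4 list members were lower at a limma adjusted p under 0.05, against 0.61% of all genes in that fit. The gene lists used here were written with earlier results of these data known, so such shares describe the lists and do not test them. Control PGCs had 8.74 times as much *Sohlh1* as IUHG PGCs, 6.86 times as much *Nobox*, 3.42 times as much *Lhx8* and 2.44 times as much *Figla* (ratios of mean TPM, n = 3 against 3). *Dppa3* (also called Stella), a maternal-effect gene that protects DNA methylation in the early embryo, was 24.8 times as high in control PGCs. Genes of the meiotic machinery, on 4 lists, were called higher once and lower 0 times, against 0.203% and 0.533% of all genes. The 1 called was *Gm960* (adjusted p = 0.0056 in limma, and 0.048 without IUHG library 3). The median log2 difference was 0.38 for double-strand break formation (14 tested) and 0.46 for meiotic cohesin and telomere attachment (16). It was 0.26 for the synaptonemal complex (14) and 0.24 for strand exchange and crossover (43), against 0.04 over all genes tested.

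Because the results turn on these 4 transcription factors, the 250 bases before their annotated start are shown, taken from RefSeq on GRCm38.p6. Capitals mark the E-box CANNTG, the core letters bound by basic helix-loop-helix proteins such as FIGLA, SOHLH1 and SOHLH2. The motif was chosen after the expression values were seen, and it reads the same on both strands. The windows are chr2:25847249-25847498 on the minus strand for *Sohlh1*, chr6:86016941-86017190 on the plus strand for *Figla*, chr6:43309555-43309804 on the minus strand for *Nobox* and chr3:154330561-154330810 on the minus strand for *Lhx8*.
Sohlh1: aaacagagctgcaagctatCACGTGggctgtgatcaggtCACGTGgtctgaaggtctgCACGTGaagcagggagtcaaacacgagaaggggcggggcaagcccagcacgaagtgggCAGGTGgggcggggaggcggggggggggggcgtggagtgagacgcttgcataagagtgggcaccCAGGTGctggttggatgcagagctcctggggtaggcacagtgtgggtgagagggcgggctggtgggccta
Figla: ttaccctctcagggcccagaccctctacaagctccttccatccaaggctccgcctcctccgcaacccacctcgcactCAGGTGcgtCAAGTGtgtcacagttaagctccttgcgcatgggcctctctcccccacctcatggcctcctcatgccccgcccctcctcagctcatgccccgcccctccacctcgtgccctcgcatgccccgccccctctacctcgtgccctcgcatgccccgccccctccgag
Nobox: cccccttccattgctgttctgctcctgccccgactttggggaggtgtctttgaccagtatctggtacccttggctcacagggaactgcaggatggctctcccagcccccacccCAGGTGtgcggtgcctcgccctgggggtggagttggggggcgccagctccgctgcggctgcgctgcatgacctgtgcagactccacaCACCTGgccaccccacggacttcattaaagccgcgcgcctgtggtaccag
Lhx8: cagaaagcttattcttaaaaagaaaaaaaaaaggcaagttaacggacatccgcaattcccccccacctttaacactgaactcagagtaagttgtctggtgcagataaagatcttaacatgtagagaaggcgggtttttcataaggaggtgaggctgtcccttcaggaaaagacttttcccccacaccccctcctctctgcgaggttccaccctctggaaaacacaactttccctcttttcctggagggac
The *Sohlh1* window held 5 E-boxes, a number reached by 1.15% of the 32841 RefSeq windows of this length. Of these 5, 3 had the letters CACGTG, and 0.0609% of windows held as many. *Figla* and *Nobox* had 2 E-boxes each, as 31.8% of windows did or exceeded. The *Lhx8* window had 0, while 66.2% of windows had at least 1. Among other oocyte-list genes called lower, the *Uchl1* and *Kit* windows had 0 E-boxes, and the *Ybx2* windows had 1 and 0. These are matches of letters only.

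The 10 germ cell markers summed to 10628 to 11522 TPM in control and 11998 to 13535 TPM in IUHG libraries, which did not overlap. The most abundant members, *Sycp3* (means 4769 and 6356 TPM) and *Tex101* (2446 and 3038 TPM), were higher in IUHG and weigh most in these sums. The sums therefore do not measure germ cell RNA as a whole. Of the 10 markers *Dppa3* and *Tdrd1* were called lower, *Mael* was lower and *Sycp3* and *Tex101* higher at an adjusted p under 0.05, and the other 5 did not pass the test. *Ddx4*, a germ cell RNA helicase, lay between 360 and 423 TPM and *Sycp3* between 4630 and 6963 TPM, while the 6 Y-linked genes summed to at most 0.601 TPM. Markers of other cells were low but not absent, and some moved with the groups. The 14 interstitial markers summed to 62.5 to 124 TPM in control and 129 to 182 TPM in IUHG libraries. Of the 12 tested, 9 had a log2 difference above 0. Over all 18753 genes tested, 9901 lay above 0 and 8852 below. The only 2 at an adjusted p under 0.05 were *Tcf21* and *Col1a1*, both higher (adjusted p = 0.026 and 0.024 in limma, and 0.12 and 0.11 without IUHG library 3). The 3 below 0 were *Nr2f1* (-0.32), *Nr2f2* (-0.02) and *Dlk1* (-0.1), and *Pdgfra* was at most 1.74 TPM. The 10 macrophage markers summed to 37.6 to 137 TPM in control and 12.9 to 29.1 TPM in IUHG libraries, with all 8 tested below 0, *C1qb* called lower (adjusted p = 0.0028) and the defining *Ptprc* and *Adgre1* at most 1.38 TPM. Pregranulosa markers overlapped between groups, at 59.1 to 101 and 83.8 to 96.9 TPM, with the defining *Foxl2* at most 2.67 TPM. The part of these cells in the differences below was not tested. In sorted bulk samples, fewer cells of a type and less RNA per cell cannot be told apart.

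IUHG library 3 stood apart from the other libraries. Its value lay between those of IUHG libraries 1 and 2 for 60.7% of genes, whereas the other 29 PGC libraries lay between their 2 partners for 11.5% to 51.6%. A weighted average of IUHG 1 and 2 correlated with it at r = 0.9858 across genes, against 0.9652 for the nearer library alone, a gain of 0.0206 where no other library gained more than 0.0088 (genes are not independent replicates). Of 29 genes listed at 0 in IUHG 1 and above 10 TPM in IUHG 2, 27 were above 0 in IUHG 3, with a median of 5.55 TPM against 12.6 TPM in IUHG 2. All 10 genes of the opposite kind were above 0 in IUHG 3 as well. It also had 3.25 gigabases of aligned sequence, where the other 5 libraries had 5.10 to 5.19. Genes above 0 TPM numbered 25027 to 26048 in control and 21077 to 24451 in IUHG libraries. The erythroid markers of IUHG 3 summed to 294 TPM against 8.84 to 43.2 TPM elsewhere. Whether IUHG 3 is an independent sample was not tested beyond these values, so counts and the leading genes are also given without it.

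**Figure D1:**
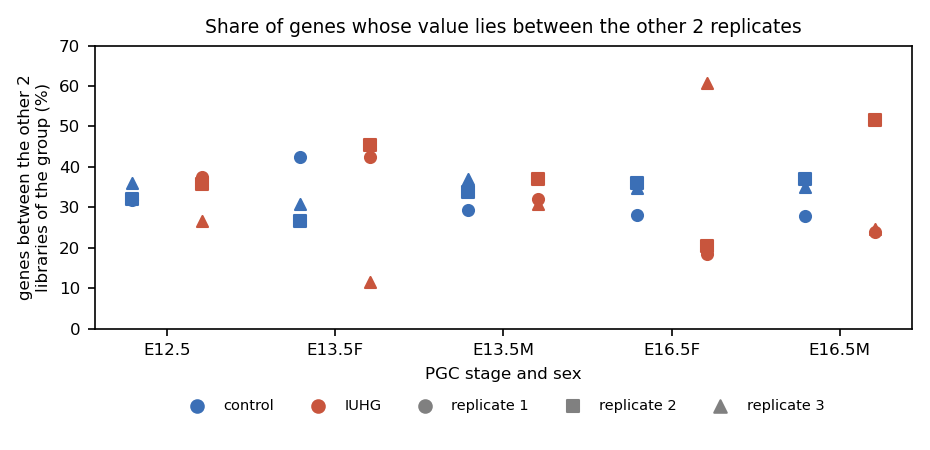
Percent of genes (vertical axis) for which a library's TPM lies between the other 2 replicates of its group, for all 30 PGC libraries by stage and sex (horizontal axis), with colour for the group and shape for the replicate. IUHG replicate 3 of E16.5F is the highest point at 60.7%, and the lowest, at 11.5%, is IUHG replicate 3 of E13.5F.

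The first question was which genes differed between IUHG and control E16.5F PGCs. Differentially expressed genes (DEGs) were those with a limma adjusted p below 0.01 and a change of more than 2-fold on the log2(TPM + 1) scale, on which low genes appear to change less than they do. By this rule 38 genes (0.203%) were higher in IUHG and 100 genes (0.533%) were lower. In all 138 the libraries of the 2 groups did not overlap. Over all genes tested, 14.9% lay wholly above and 14.1% wholly below the controls without overlap. At an adjusted p under 0.05 and any fold, 480 genes (2.56%) were higher and 578 (3.08%) lower, and 4273 had an unadjusted p under 0.05.

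Without IUHG 3, 3 genes (0.0159%) were higher and 21 (0.111%) lower. All 24 were among the 138, and all 138 kept their direction. Of the 138, 22 higher and 75 lower genes had an adjusted p under 0.05 in that fit, where 0.292% of all genes were higher and 0.61% lower. Counts also fell to 9, 4 and 3 higher and 15, 7 and 9 lower genes without control 1, 2 and 3, and to 19 and 26 higher and 69 and 92 lower genes without IUHG 1 and 2. The 9 genes called without each library in turn were *Rps2-ps13*, *Sohlh1*, *Figla*, *Gm20716*, *Uchl1*, *Ftl1* and *Lhx8*, all lower, and *Cwc22* and ENSMUSG00000121644, both higher.

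**Figure D2:**
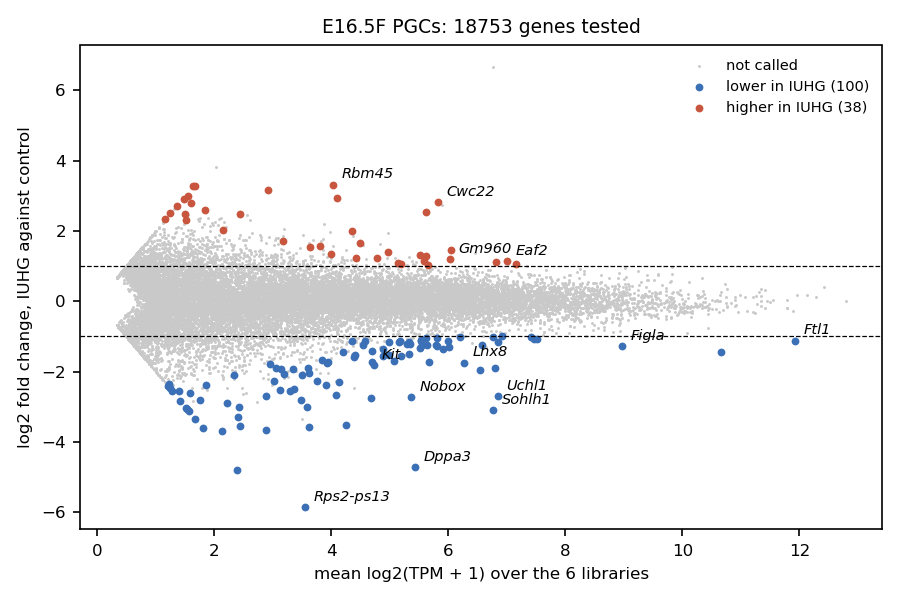
Log2 difference of IUHG against control (vertical axis) by mean log2(TPM + 1) over the 6 libraries (horizontal axis) for 18753 genes, with dashed lines at a fold change of 2. The 100 lower DEGs reach -5.85 and the 38 higher DEGs reach 3.32, and the grey point at 6.65 is *Gm37376*, which was not called (adjusted p = 0.119).

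*Sohlh1* (ENSMUSG00000059625.7, mm39 chr2:25733007-25737260, minus strand) encodes a basic helix-loop-helix factor of early oocytes and spermatogonia. It had 331, 336 and 291 TPM in control 1 to 3 and 39.8, 40.5 and 29.4 TPM in IUHG 1 to 3. Every IUHG library lay far below every control, and the log2 difference was -3.10 (SE 0.14, adjusted p = 2.2e-05 in limma, and 6.4e-05 without IUHG 3).

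*Nobox* (mm39 chr6:43280608-43286488, minus strand), an oocyte homeobox factor that activates *Gdf9* and other egg genes, had 113, 113 and 90.5 TPM in control and 11.0, 18.4 and 16.8 TPM in IUHG libraries. The highest IUHG value was well under the lowest control, with a log2 difference of -2.72 (SE 0.21, adjusted p = 0.0003 in limma, and 0.0028 without IUHG 3).

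*Lhx8* (mm39 chr3:154011931-154036296, minus strand), a LIM homeobox factor needed for oocyte survival, had 132, 156 and 135 TPM in control and 41.1, 42.3 and 40.2 TPM in IUHG libraries. The 3 IUHG values were nearly alike and below all controls, at a log2 difference of -1.75 (SE 0.12, adjusted p = 0.0002 in limma, and 0.003 without IUHG 3).

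*Figla* (mm39 chr6:85994173-85997978, plus strand), the helix-loop-helix factor that turns on the zona pellucida genes, had 823, 795 and 735 TPM in control and 339, 317 and 308 TPM in IUHG libraries. The groups did not overlap, and *Figla* remained the most abundant of these factors in both. Its log2 difference was -1.28 (SE 0.08, adjusted p = 0.00011 in limma, and 0.0014 without IUHG 3). *Ybx2* (MSY2), an RNA-binding protein that stores maternal mRNA and was placed on the same list, had 86.6, 105 and 122 TPM in control and 46.8, 57.4 and 48.6 TPM in IUHG libraries. Its log2 difference of -1.01 (SE 0.16, adjusted p = 0.0086 in limma) was no longer past the threshold without IUHG 3 (adjusted p = 0.06).

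The other members of the oocyte transcription factor list did not follow. Of the 13 tested, 5 were called lower, *Ybx2* included, and 0 higher, with a list median of -0.25. At a limma adjusted p under 0.05 and any fold, 5 were lower and 1 (*Taf4b*) higher, against 3.08% and 2.56% of all genes. *Sohlh2*, the partner of SOHLH1, had mean levels of 150 ± 7.05 TPM in control and 173 ± 38.6 TPM in IUHG (SD, n = 3, adjusted p = 0.5). *Taf4b*, a germ cell subunit of the TFIID complex, had 90.9 ± 16.7 and 144 ± 10.3 TPM and a log2 difference of 0.67 (adjusted p = 0.033 in limma, and 0.14 without IUHG 3). *Taf7l* (1169 and 1309 TPM, adjusted p = 0.21) and *Foxo3*, the factor that holds primordial follicles dormant (31.5 and 26.2 TPM, adjusted p = 0.47), were not called.

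**Figure D3:**
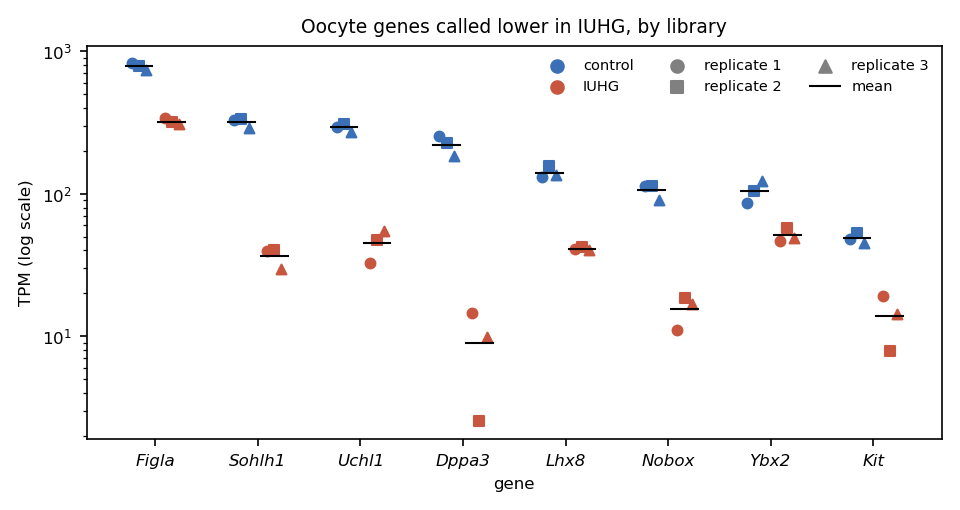
TPM on a log axis (vertical) in each of the 6 E16.5F libraries for the 8 oocyte-list genes called lower in IUHG (horizontal), with shapes for replicates and bars for means. No IUHG point reaches a control point of the same gene, and the gap is widest for *Dppa3*, whose IUHG values run from 2.53 to 14.5 TPM.

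Among the 20 tested of 47 early oocyte genes, 3 were called lower and 0 higher, against 0.533% and 0.203% of all genes tested. The 3 were *Dppa3*, *Uchl1* and *Kit*. At a limma adjusted p under 0.05 and any fold, 5 were lower and 2 (*Gdf9* and *Nlrp4c*) higher, against 3.08% and 2.56% of all genes. *Dppa3* had 253, 227 and 184 TPM in control and 14.5, 2.53 and 9.81 TPM in IUHG libraries. Even the highest IUHG library was far below the lowest control, and the log2 difference was -4.72 (SE 0.45, adjusted p = 0.0011 in limma, and 0.0063 without IUHG 3). *Uchl1*, a ubiquitin hydrolase abundant in oocytes and gonocytes, had 296, 308 and 272 TPM in control and 32.6, 47.5 and 54.4 TPM in IUHG libraries. Its log2 difference was -2.71 (SE 0.17, adjusted p = 0.00013 in limma, and 0.00046 without IUHG 3).

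*Kit*, the receptor through which germ cells receive their survival signal, had 48.1, 53.2 and 45.1 TPM in control and 19.2, 7.91 and 14.3 TPM in IUHG libraries. All IUHG libraries lay below the controls, with a log2 difference of -1.82 (SE 0.28, adjusted p = 0.0084 in limma, and 0.045 without IUHG 3). Its ligand *Kitl*, a gene of pregranulosa cells, was at 4.90, 4.68 and 2.41 TPM in control libraries and at 0, 0.559 and 0.805 TPM in IUHG libraries (adjusted p = 0.042 in limma, and 0.12 without IUHG 3).

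The egg genes that NOBOX and FIGLA control later were mostly below the filter, as 27 of the 47 listed genes were, including *Zp1*, *Zp2* and *Bmp15*. *Gdf9*, an oocyte growth factor, was low but not lower in IUHG, with 4.91, 1.53 and 0.958 TPM in control and 9.56, 9.35 and 8.77 TPM in IUHG libraries (log2 difference 1.73, adjusted p = 0.046 in limma, and 0.17 without IUHG 3). *Ooep*, a gene of the subcortical maternal complex, went the other way, from 7.79 ± 0.928 to 2.06 ± 1.03 TPM (SD, n = 3, adjusted p = 0.033, and 0.073 without IUHG 3). The list median was 0.02, and it was -0.30 over members with a mean of at least 5 TPM and -0.26 without IUHG 1. The general germ cell genes *Ddx4* and *Dazl*, an RNA-binding protein, did not pass the test, at 363 ± 4.31 against 405 ± 26.7 TPM and 1231 ± 114 against 1417 ± 113 TPM (adjusted p = 0.28 and 0.19).

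The next question was how these genes stood at other stages and in males. *Sohlh1* was barely detected in E13.5F PGCs, at 3.00 ± 0.485 TPM in control and 0.744 ± 1.02 TPM in IUHG (SD, n = 3). In E16.5 males it reached 435 ± 6.96 TPM in control and 410 ± 7.88 TPM in IUHG PGCs. The IUHG difference was 3.02 lower in females than in males on the log2 scale (interaction -3.02, SE 0.15, adjusted p = 1.5e-06 in limma). IUHG female PGCs, at 36.6 ± 6.19 TPM, were far below either male group.

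*Nobox* and *Lhx8* were higher in control females than in males at E16.5, from the means of 106 ± 13.1 and 141 ± 13.0 TPM in control females. Male PGCs had 14.5 ± 2.88 and 13.3 ± 1.04 TPM of *Nobox* (control and IUHG, SD, n = 3), and the IUHG female mean of 15.4 ± 3.88 TPM was within 1 SD of the control male mean. *Lhx8* in males was at 3.47 ± 0.285 and 3.05 ± 0.539 TPM, so IUHG females, at 41.2 ± 1.02 TPM, were still above it. The sex interactions were -2.62 for *Nobox* and -1.60 for *Lhx8* (adjusted p = 0.00047 and 0.001 in limma).

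*Figla* also fell at E13.5F, where *Sohlh1*, *Nobox* and *Lhx8* did not pass the test. Like *Sohlh1*, *Nobox* (means of 1.52 and 0.404 TPM in control and IUHG) and *Lhx8* (3.87 and 3.77 TPM) were near the floor at E13.5F. A fall at such levels is compressed on the log2(TPM + 1) scale. *Figla* had 75.4, 89.8 and 78.0 TPM in E13.5F control and 11.1, 10.2 and 4.62 TPM in E13.5F IUHG libraries, a log2 difference of -3.17 (adjusted p = 0.0015 in limma). The difference at E16.5F was smaller than that at E13.5F (interaction 1.88, SE 0.32, adjusted p = 0.0035). E13.5F IUHG library 3 lay between its partners for 11.5% of genes, the lowest share, and without it the interaction was 1.53 (adjusted p = 5e-05).

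*Dppa3* followed another course, since it fell with age in controls, from 5535 TPM at E12.5 to 1989 ± 208 TPM at E13.5F and 221 ± 34.9 TPM at E16.5F. IUHG PGCs had 2453 ± 604 TPM at E13.5F and 8.94 ± 6.02 TPM at E16.5F, and males at E16.5 had 421 ± 70.9 and 459 ± 38.0 TPM. The difference at E16.5F was larger than at E13.5F (interaction -4.99, adjusted p = 8.1e-05) and than in E16.5 males (-4.85, adjusted p = 0.00087). *Uchl1* was likewise not called at E13.5F (adjusted p = 0.74) or in E16.5 males, where it was at 1433 ± 59.5 and 1475 ± 62.0 TPM.

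**Figure D4:**
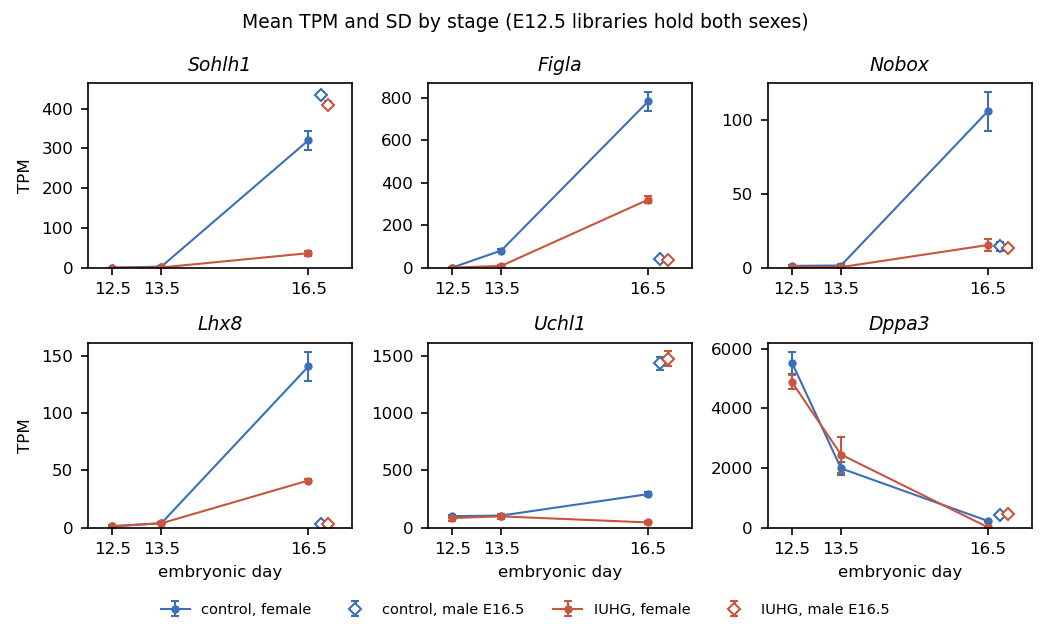
Mean TPM with SD (vertical axes, n = 3) by embryonic day (horizontal axes) for 6 oocyte genes in control and IUHG PGCs, with open diamonds for males of E16.5 and E12.5 libraries not split by sex. Control females climb steeply to E16.5 for *Sohlh1*, *Figla*, *Nobox* and *Lhx8* while IUHG females stay lower, and *Dppa3* descends in both groups.

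The DEGs were also described by their course in control PGCs. In females the median change of the 100 lower DEGs from E13.5F to E16.5F was 1.29 on the log2 scale, and 57 of them (57%) rose more than 2-fold, against 25.2% of all genes tested. The 38 higher DEGs had a median of 0.03, and 26.3% rose by as much. In control males from E13.5 to E16.5, 47% of the lower and 39.5% of the higher DEGs rose more than 2-fold, against 25.2% of all genes. The E16.5F control libraries enter both comparisons, so the female shares are a description.

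The E16.5F DEGs were then looked up in the other PGC comparisons. Of the 94 lower DEGs tested in E16.5 male PGCs, 5 were lower and 0 higher in IUHG males, and of 33 higher DEGs 4 were higher and 1 lower. At E13.5F, 84 lower DEGs were tested, of which 1 was lower and 1 higher, and 29 higher DEGs, of which 1 was lower and 1 higher. In E13.5 males, 9 of 80 lower DEGs were lower and 8 higher, and of 23 higher DEGs 3 were higher and 2 lower. At E12.5, 2 of 76 lower DEGs were lower and 0 higher, and 0 of 23 higher DEGs were called either way. Background shares were 0.123% either way at E12.5, 1.89% lower and 2.03% higher at E13.5M, 0.134% lower and 0.0668% higher at E16.5M, and 0.435% lower and 0.0786% higher at E13.5F. Tested as an interaction, the IUHG difference was more negative in females than in males for 70 of the 100 lower DEGs and more positive for 19 of the 38 higher DEGs. Against E13.5F it was more negative for 49 and more positive for 1 of the lower DEGs, and more positive for 22 of the higher DEGs. The 138 were chosen on the same E16.5F libraries, which favours this outcome. Over all genes the interaction was called for 1.18% against males and 1.93% against E13.5F, and the shares were 0.848% more negative and 0.333% more positive against males, and 0.578% and 1.35% against E13.5F.

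The meiotic genes were described next, since E16.5F PGCs are in prophase I. The first group starts recombination, by placing and cutting the double-strand breaks. All 14 were tested, and 13 had a log2 difference above 0, as did 9901 of all 18753 genes tested. The 1 called higher, against 0.203% of all genes, was *Gm960* (listed as *Top6bl*, the partner subunit of the SPO11 cutting enzyme). *Gm960* had 41.8, 38.6 and 46.1 TPM in control and 117, 78.4 and 100 TPM in IUHG libraries. All IUHG values were above the controls, and the log2 difference was 1.19 (SE 0.17, adjusted p = 0.0056 in limma, and 0.048 without IUHG 3).

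At an adjusted p under 0.05, 4 of these 14 were higher and 0 lower, against 2.56% higher over all genes. Besides *Gm960* they were *Prdm9*, the histone methyltransferase that selects hotspots (74.4 ± 6.55 to 139 ± 14.1 TPM), its reader *Zcwpw1* (735 ± 10.0 to 1068 ± 40.3 TPM) and the axis protein gene *Iho1* (32.9 ± 4.50 to 62.9 ± 12.6 TPM). *Spo11* itself was at 292 ± 18.0 and 382 ± 39.1 TPM (SD, n = 3, adjusted p = 0.053). Without IUHG 3, 2 of the 14 had an adjusted p under 0.05 and the median was 0.35.

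Genes of strand exchange and crossover numbered 43, with 0 called either way and a median of 0.24. At an adjusted p under 0.05, 6 were higher and 3 lower, against 2.56% and 3.08% of all genes, and without IUHG 3 these were 2 and 0. *M1ap*, which acts in recombination together with the ZMM proteins, had 689, 609 and 628 TPM in control and 1208, 1308 and 1288 TPM in IUHG libraries. The groups were well apart, but its log2 difference of 0.98 (SE 0.07, adjusted p = 0.00026 in limma) was just under the fold threshold. *Msh5*, which stabilises crossover intermediates, rose by 0.94 on the same scale (adjusted p = 0.004), and the meiotic recombinase *Dmc1* by 0.74 (adjusted p = 0.013, and 0.073 without IUHG 3). *Mnd1*, a cofactor of DMC1, fell from 144 ± 15.0 to 90.2 ± 9.70 TPM (SD, n = 3, log2 difference -0.67, adjusted p = 0.02, and 0.058 without IUHG 3). *Mlh3*, a nuclease subunit at crossovers, had 21.3 ± 2.87 and 15.6 ± 1.52 TPM, and this did not pass the test (adjusted p = 0.24).

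Meiotic cohesin and telomere attachment genes gave 6 of 16 higher and 0 lower at an adjusted p under 0.05, against 2.56% and 3.08% of all genes. Of the 16, 0 reached the DEG threshold. *Stag3*, a subunit of meiotic cohesin, had 220, 200 and 241 TPM in control and 420, 407 and 420 TPM in IUHG libraries. Every IUHG value was above every control (log2 difference 0.92, SE 0.09, adjusted p = 0.0014 in limma, and 0.015 without IUHG 3). *Spdya*, *Sun1* and *Majin*, which tether telomeres to the nuclear envelope, rose by 0.84, 0.69 and 0.54. *Rec8*, another cohesin subunit, was low and uneven, at 9.32, 2.42 and 1.27 TPM in control and 6.47, 0.822 and 3.55 TPM in IUHG libraries, and the groups overlapped (adjusted p = 0.92). Without IUHG 3, 1 of the 16 kept an adjusted p under 0.05.

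The synaptonemal complex holds paired chromosomes together, and its control means ran from 1.02 TPM for *Sycp2l* to 4769 TPM for *Sycp3*. Of 14 tested, 0 were called and the median was 0.26. At an adjusted p under 0.05, 3 were higher and 1 lower, against 2.56% and 3.08% of all genes. Without IUHG 3 these were 1 and 0. *Sycp3*, of the lateral element, had 4982, 4630 and 4694 TPM in control and 6572, 5532 and 6963 TPM in IUHG libraries. It lay higher in each IUHG library, by 0.41 on the log2 scale (adjusted p = 0.022, and 0.087 without IUHG 3). *Tex12*, of the central element, rose from 1028 ± 80.3 to 1628 ± 180 TPM (adjusted p = 0.0055), and *Fkbp6* fell from 1580 ± 91.0 to 1217 ± 100 TPM (adjusted p = 0.025). *Sycp1*, the transverse filament, overlapped between groups at 1854 ± 72.6 and 1778 ± 139 TPM (SD, n = 3, adjusted p = 0.61).

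Among regulators of meiotic entry, 29 were tested, 0 were called and the median was -0.02. At an adjusted p under 0.05, 2 were higher and 4 lower, against 2.56% and 3.08% of all genes. Without IUHG 3 these were 1 and 1. *Stra8*, the retinoic acid target that starts meiosis, had 161, 123 and 150 TPM in control and 206, 122 and 179 TPM in IUHG libraries, and the groups overlapped (adjusted p = 0.55). Its partner *Meiosin* did not overlap, with 220, 232 and 253 TPM in control and 448, 419 and 419 TPM in IUHG libraries (log2 difference 0.87, adjusted p = 0.0014 in limma). *Meioc*, which helps cells to stay in prophase, rose by 0.75 (adjusted p = 0.01 in limma, and 0.072 without IUHG 3). The BMP target *Id1* fell from 1801 ± 54.4 to 1069 ± 160 TPM (SD, n = 3, adjusted p = 0.0039, and 0.018 without IUHG 3). *Id2*, *Id3* and the retinoic acid binding protein gene *Crabp2* were lower too at an adjusted p under 0.05, but not without IUHG 3 (0.098, 0.13 and 0.12). *Dmrtc2* was not called (428 and 477 TPM, adjusted p = 0.28).

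Some meiotic genes that were higher at E16.5F at an adjusted p under 0.05 were lower in IUHG at E13.5F. *Meiosin* had a log2 difference of -2.87 at E13.5F (adjusted p = 0.0012) and an interaction of 3.74 (SE 0.28, adjusted p = 3e-06 in limma). *M1ap* was at -1.93 there (adjusted p = 0.0022) with an interaction of 2.91. *Sycp3* and *Tex12* fell by 2.10 and 1.97 at E13.5F, with interactions of 2.50 and 2.63. *Taf7l*, which was not called at E16.5F, fell by 2.90 at E13.5F, with an interaction of 3.07. The 2 stages share no library.

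**Figure D5:**
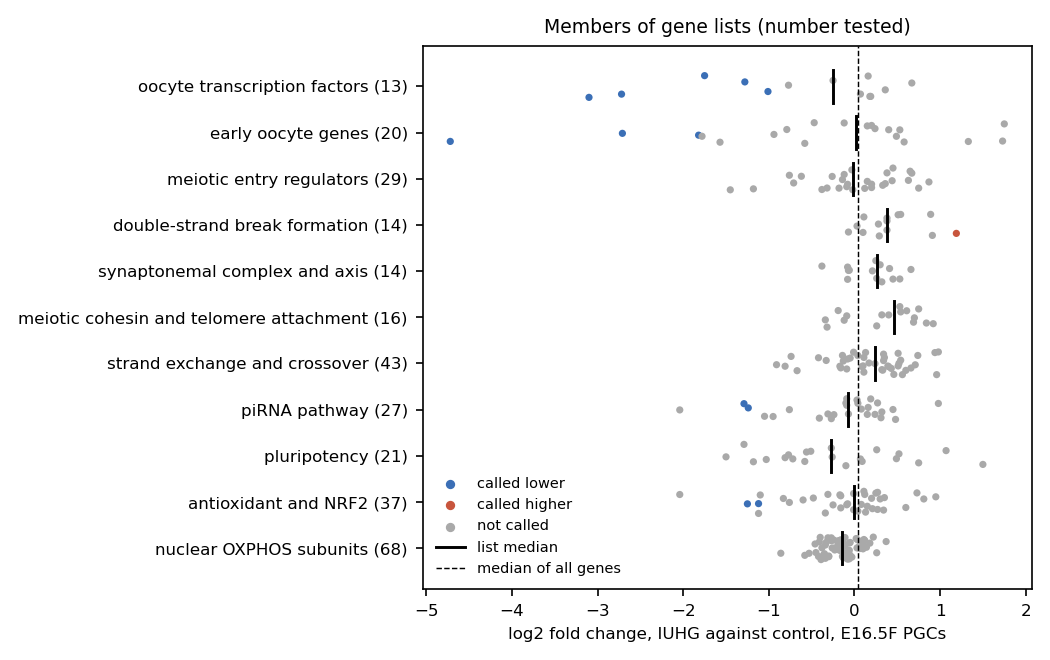
Log2 difference in E16.5F PGCs (horizontal axis) of each tested member of 11 gene lists (rows, number tested in brackets, vertical scatter without meaning), with black bars for list medians and a dashed line for all genes. Called members, in colour, lie mostly to the left on the oocyte lists, and the medians of the 4 lists of meiotic machinery lie between 0.24 and 0.46.

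Genes of the piRNA pathway, which silences transposons in germ cells, gave 2 lower and 0 higher DEGs of 27 tested. Over all genes the shares were 0.533% and 0.203%, and the list median was -0.07. *Tdrd9*, an RNA helicase, had 72.5, 89.1 and 101 TPM in control and 31.7, 39.6 and 34.0 TPM in IUHG libraries, and *Tdrd1*, a scaffold protein, had 30.6, 39.9 and 34.7 TPM against 16.2, 13.0 and 13.7 TPM. Neither overlapped, with log2 differences of -1.29 and -1.24 (adjusted p = 0.0039 and 0.0082 in limma, and 0.031 and 0.059 without IUHG 3). *Piwil2*, the piRNA-binding protein of fetal germ cells, and its cofactor *Gtsf1* fell by 0.95 and 0.76 (adjusted p = 0.01 and 0.0042). *Mael* fell by 0.31 (adjusted p = 0.024 in limma), whereas *Gpat2* and *Tex101* were higher at an adjusted p under 0.05. Without IUHG 3 the adjusted p of *Mael*, *Gpat2* and *Tex101* was 0.09, 0.087 and 0.053. *Mov10l1*, *Asz1* and *Tdrkh* did not pass the test. The 8 markers of male germ cells, which include *Tdrd9*, summed to 110 to 141 TPM in control and 59.7 to 77.0 TPM in IUHG libraries, and 4 of them stayed under 1 TPM in every library.

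Of 15 tested genes of PGC identity and survival, 2 were called lower, *Dppa3* and *Kit*, and 0 higher, against 0.533% and 0.203% of all genes. Their median was -0.07. Of 35 listed pluripotency genes, 21 were tested, 0 were called, and the median was -0.27, which ranged from -0.57 over members with a mean of at least 5 TPM to -0.11 without a filter. *Dppa4* fell by 0.81 (adjusted p = 0.019 in limma, and 0.09 without IUHG 3). *Nanog* was below the filter, listed at 0.494 TPM in 1 control library and at 0 in the other 5. *Sall4* had 3.45, 4.51 and 2.67 TPM in control and 0, 2.03 and 1.04 TPM in IUHG libraries (adjusted p = 0.14), *Tfap2c* was at most 1.99 TPM (adjusted p = 0.34) and *Enpp3* overlapped between groups (adjusted p = 0.92). *Slc25a31*, a germ cell ADP/ATP carrier, rose from 737 ± 9.29 to 1103 ± 200 TPM (log2 difference 0.57, adjusted p = 0.024 in limma, and 0.09 without IUHG 3).

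Of 37 tested antioxidant genes, 2 were called, both lower, against 0.533% of all genes. *Ftl1*, the light chain of the iron store ferritin, had 5856, 5960 and 5371 TPM in control and 2373, 2900 and 2662 TPM in IUHG libraries. The IUHG libraries lay well below, with a log2 difference of -1.12 (SE 0.08, adjusted p = 0.00017 in limma, and 0.0015 without IUHG 3). *Gstm1*, a glutathione transferase, fell by 1.25 (adjusted p = 0.0098, and 0.022 without IUHG 3). Of the 37 genes, 7 were lower and 0 higher at an adjusted p under 0.05, against 3.08% lower over all genes, and 2 were lower without IUHG 3. Among the 7 were the master regulator *Nfe2l2* (-1.10) and the peroxiredoxin *Prdx6* (-2.04, adjusted p = 0.018 and 0.027, and 0.093 and 0.061 without IUHG 3), and the list median was -0.01.

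Nuclear genes of oxidative phosphorylation gave 13 lower and 0 higher of 68 at an adjusted p under 0.05, against 3.08% lower over all genes, with 0 past the fold threshold. The median was -0.14 and 51 of 68 lay below 0, as did 8852 of all 18753 genes tested. *Atp5me*, a subunit of ATP synthase, fell from 268, 247 and 291 TPM to 142, 147 and 152 TPM, with no overlap (log2 difference -0.86, adjusted p = 0.0025). Without IUHG 3 the median was also -0.14, and 2 members had an adjusted p under 0.05. Of the 13 mitochondrially encoded genes, 0 passed the limma test and 2 had an unadjusted p under 0.05, as did 4273 of all 18753 genes.

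*Stk11* (LKB1), the kinase that activates AMPK, had 55.2, 62.8 and 60.1 TPM in control and 13.2, 20.6 and 19.8 TPM in IUHG libraries. The groups were far apart (log2 difference -1.70, SE 0.19, adjusted p = 0.0026 in limma, and 0.016 without IUHG 3). The difference had the opposite sign at E13.5F, at 2.22 (adjusted p = 0.0033), and the interaction was -3.92 (adjusted p = 6.4e-06). Of 33 genes of insulin, AMPK and mTOR signalling, 1 was called, against 0.533% of all genes called lower, and the median was 0.07. The cell death gene *Bax* fell by 0.92 (adjusted p = 0.0014 in limma). Of 45 p53 and apoptosis genes 3 were lower and 0 higher at an adjusted p under 0.05, against 3.08% and 2.56% of all genes. Without IUHG 3, 1 was lower. The chaperones *Hsp90aa1*, *Hsp90ab1* and *Hspe1* were lower by 0.31, 0.50 and 0.39, and 0 of 15 heat shock genes had an adjusted p under 0.05 without IUHG 3.

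Few genes of other lists were called, where 0.203% of all genes were called higher and 0.533% lower. Major histocompatibility class I genes had 1 higher DEG of 21, *H2-Q4* (9.03 to 24.5 TPM, log2 difference 1.35, adjusted p = 0.0087, and 0.058 without IUHG 3), with *H2-D1* higher by 0.79 (adjusted p = 0.0011) and *H2-K1* by 0.44. Of 42 imprinted genes 1 was called, the paternally expressed *Mest* (13.0 to 31.9 TPM, adjusted p = 0.0083, and 0.072 without IUHG 3). Lists of DNA methylation (10 tested), Polycomb repression (29), X dosage (8) and immediate early genes (15) had 0 genes at an adjusted p under 0.05 in limma. They had 4, 9, 1 and 2 at an unadjusted p under 0.05, as did 4273 of all 18753 genes tested. Glycolysis (39), tricarboxylic acid cycle (29), the unfolded protein response (28), cholesterol synthesis (25) and cell cycle (63) had 1 to 3 each at an adjusted p under 0.05. Over all genes the shares were 2.56% higher and 3.08% lower. Among these members were a higher citrate synthase gene *Cs* (0.64, adjusted p = 0.01 in limma, and 0.058 without IUHG 3) and a lower *Tigar* (-1.31, adjusted p = 0.025, and 0.094 without IUHG 3).

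Outside the lists, the lower DEGs with the lowest p included *Ccdc201* (213 to 56.8 TPM, log2 difference -1.89), the phosphatase gene *Dusp12* (33.0 to 3.23 TPM, -3.01) and *Alad*, an enzyme of heme synthesis (265 to 125 TPM, -1.08). All 3 were called without IUHG 3 as well. *Gm20716* had 32.9, 24.4 and 23.5 TPM in control libraries and was listed at 0 in all IUHG libraries. It also varied within other groups, at 8.21 ± 14.2 TPM in E12.5 control, 8.17 ± 14.2 TPM in E13.5F IUHG and 3.08 ± 5.33 TPM in E16.5M control PGCs (SD, n = 3), where the SD exceeded the mean.

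Among the higher DEGs, *Cwc22*, a splicing factor of the exon junction complex, had 22.3, 22.4 and 16.6 TPM in control and 127, 164 and 157 TPM in IUHG libraries. All IUHG values were far above (log2 difference 2.81, SE 0.17, adjusted p = 0.00011 in limma, and 0.0015 without IUHG 3). *Rbm45*, an RNA-binding protein gene 1.5 Mb away on chromosome 2, had 2.56, 4.05 and 6.76 TPM in control and 65.2, 41.4 and 48.1 TPM in IUHG libraries (log2 difference 3.32, adjusted p = 0.001, and 0.011 without IUHG 3). Both were also higher in IUHG male PGCs at E16.5, by 2.35 and 1.96 (adjusted p = 0.00027 and 0.0012). ENSMUSG00000121644 did the same, with 2.53 in females and 1.59 in males. *Eaf2*, an elongation factor partner, rose from 85.6 to 189 TPM and *Acss2*, which makes acetyl-CoA from acetate, from 98.9 to 205 TPM. *Ptn*, a secreted growth factor, rose from 9.53 to 40.0 TPM. *Efemp1*, an extracellular matrix gene, was at most 0.0571 TPM in control and 6.27 to 11.3 TPM in IUHG libraries. The summed interstitial markers were also higher in IUHG libraries, and a link to these 2 genes was not tested.

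Pseudogenes made up 6.25% of the higher and 8.14% of the lower DEGs with a RefSeq type, against 8.84% of all genes tested with one. *Rps2-ps13*, a copy of a ribosomal protein gene, had 94.7, 78.8 and 92.2 TPM in control and 0.709, 0.484 and 0.448 TPM in IUHG libraries, a log2 difference of -5.85 (adjusted p = 7.5e-06 in limma). It was also lower by 5.95 at E12.5 and higher by 7.62 in E13.5 males. *Rps13-ps1*, *Rpsa-ps10*, *Rps15a-ps7* and the *Hmgb1* copy *Hmgb1-ps7* were lower in E16.5F PGCs and in E16.5 males, while *Rps3a3* was higher in both (3.16 and 4.41). Such copies share sequence with their parent genes, so how reads were divided between them is uncertain. The summed share of TPM in ribosomal protein genes and copies was 7.88% to 8.63% in control and 7.29% to 7.54% in IUHG libraries (p = 0.1 by an exact two-sided permutation test, which cannot go lower with 3 against 3).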

How the data were processed

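RNA-seq of sorted PGCs was made from amplified cDNA. Per the labels and the methods, the authors trimmed reads with Trim Galore, aligned them with STAR to mm39, counted them with featureCounts and used DESeq2 for DEGs. The deposited gene tables hold TPM, FPKM and coverage and no read counts, so the count test was not run. The TPM values, scaled by the authors for transcript length and to 1 total per library, were summed per gene ID. The deposited FPKM, scaled for transcript length and mapped fragments, was an alternative, and the authors' unscaled coverage divided by FPKM gave the aligned gigabases. Reads behind single genes are unknown, so counting error is not given.

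The scale of all tests was log2(TPM + 1), and a log2 difference is IUHG minus control on it. The filter kept genes averaging at least 1 TPM in either group. Fits used R 4.3.3 and limma 3.58.1 (linear model, moderated variances with a mean trend, two-sided), and p was adjusted after Benjamini and Hochberg. The methods give P under 0.01 and a fold change over 2, and here p was adjusted. Interactions were fitted on 12 libraries and called at an adjusted p under 0.01. Nothing in the labels says that replicates came from separate litters, so p-values measure the spread between these pooled samples. Members and lists were chosen with earlier results of these data known. Named genes are the 12 DEGs of each direction with the lowest p, list members called (up to 8 per list) or else the 2 with the lowest p, genes the study names at this stage, DEGs shared with another PGC comparison and the 5 leading genes of each interaction. Other list members are named as examples chosen after their values were seen. Of the list symbols, 3 were matched through a RefSeq synonym and 4 had no match (*Gcna*, *Redic1*, *Spo16*, *Zrsr1*). The fit was run on simulated data in which libraries varied independently. Such data cannot show how it behaves if IUHG 3 is close to an average of its partners. Tables used python 3.11.15, numpy 2.4.6, pandas 2.3.3 and matplotlib 3.10.9. Alternatives were FPKM, a pseudocount of 0.1, other filters, scalings and thresholds, array weights, one fit of all PGC groups, a replicate block and leaving out each library. Whole gonads were not analysed here. Some genes that the naming rule picks are not reported here.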

Additional observations from a re-analysis of the deposited data

Results flagged for a closer look

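The IUHG difference in E16.5F PGCs differed from that in E13.5F PGCs for 397 of 20584 genes (limma interaction, adjusted p under 0.01), and from that in E16.5 male PGCs for 284 of 24051 genes. Against E13.5F, the difference in E16.5F was lower on the log2 scale for *Rps2-ps13* (-6.14), *Dppa3* (-4.99), *Uchl1* (-2.59) and *Lhx8* (-1.71). It was higher for *H2-D1* (4.43), *Taf7l* (3.07), *Tex12* (2.63), *Sycp3* (2.50) and *Figla* (1.88). All 9 remained past the threshold without E13.5F IUHG 3, and 7 of the 9 without E16.5F IUHG 3, where *Figla* (adjusted p = 0.013) and *Lhx8* (0.022) missed it. *Lhx8* was near the floor in E13.5F PGCs (means of 3.87 and 3.77 TPM in control and IUHG), where the log2 scale used compresses a fall.

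Against males of the same day, it was lower for *Rps2-ps13* (-6.47), *Dppa3* (-4.85), *Sohlh1* (-3.02), *C330020E22Rik* (-2.95), *Uchl1* (-2.75), *Nobox* (-2.62), *Kit* (-2.09), *Lhx8* (-1.60) and *Figla* (-1.10). It was higher for *Gm27164* (5.11), which rose from 5.30 to 46.8 TPM in females and fell from 5.56 to 0.452 TPM in males. Without E16.5F IUHG 3, 8 of these 10 were past the threshold, and *Figla* (adjusted p = 0.011) and *Kit* (0.012) missed it.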

How the results depend on the processing

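The number of DEGs, 38 higher and 100 lower, depended on the settings, and in each of the alternatives the lower genes were at least as many as the higher ones except with array weights. Counts (higher and lower) were 717 and 942 with all PGC groups in one fit, 780 and 772 with array weights, 200 and 318 at an adjusted p under 0.05, and 363 and 547 at an unadjusted p under 0.01. They were 24 and 63 with a pseudocount of 0.1 and 2 and 8 without a filter on TPM. With IUHG 3 left out and an adjusted p under 0.05, an alternative chosen after seeing the data, they were 25 and 82. FPKM, a filter of 5 TPM, median-of-ratios scaling and quantile normalization gave 34 to 39 and 104 to 114. Leaving out single libraries gave 3 to 26 higher and 7 to 92 lower DEGs. The replicate number as a block gave 14 and 48, of which 61 were among the 138, but same-numbered libraries did not deviate together (correlations 0.0008 to 0.0133), so the numbers name libraries and do not pair them. The stage interaction gave 397 genes, 258 without a filter, 239 with the replicate block and 196 to 771 when single libraries were left out (771 without E13.5F IUHG 3, 196 without E16.5F IUHG 3, and 198 to 262 without any 1 control). The sex interaction gave 284, 21 with the block and 86 to 398 when single libraries were left out (178 without E16.5F IUHG 3, and 86 to 130 without any 1 male library). Named genes had 1627 values under alternatives. Of these, 1334 kept direction and side of the threshold, 272 no longer passed it and 16 newly passed it. The 770 values of called genes kept their direction, but only 498 also kept the call. The 5 that turned were of uncalled genes: *Sycp1* (0.0 without IUHG 2, over a range of -0.1 to 0.0), *Enpp3* (-0.01 without IUHG 3 and -0.18 without control 2, over -0.18 to 0.33) and *Rec8* (0.44 without IUHG 2 and 0.51 without control 1, over -0.59 to 0.51). The causes were not tested. With 3 libraries a group and no read counts, differences of genes with low TPM were not resolved.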

Other observations

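Some DEGs outside the lists, chosen here after their values were seen, are given as values. *Malat1*, an abundant nuclear long noncoding RNA, fell from a mean of 2665 to 991 TPM (log2 fold change -1.46, limma adjusted p = 0.0016, and 9.8e-05 without IUHG 3). *Cd55* and its neighbour *Cd55b*, both regulators of complement, fell from 41.6 to 2.78 TPM and from 7.96 to 0.299 TPM. Near-identical copies may share reads, so the 2 are not independent. *Ckb*, the brain-type creatine kinase, fell from 64.7 to 5.55 TPM, and *Gadd45g*, a stress and growth arrest gene, from 92.9 to 27.5 TPM. *Ftl1-ps1*, a copy of the ferritin gene *Ftl1*, fell from 58.9 to 24.8 TPM. *Ftl1* itself fell from 5729 to 2645 TPM, and the copy may share its reads, so these 2 are not independent either.

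*Gm37376* was present or absent by library rather than by group. It had 1262, 0 and 0 TPM in E16.5F control libraries and 993, 1347 and 945 TPM in E16.5F IUHG libraries. In E16.5 males it was at 2.43, 0 and 1012 TPM in control and at 1131, 0 and 0 TPM in IUHG libraries, and it was listed at 0 in all E13.5F libraries.

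By RefSeq type, 78.1% of the higher DEGs, 83.7% of the lower DEGs and 80.5% of all genes tested with a type were protein coding. Chromosome 2 held 15.8% of the higher and 11% of the lower DEGs, against 7.55% of all genes tested.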
